A study of Homo sapiens with 14 samples.

Results

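The DEAD-box and DEAH-box RNA helicases described here are the 49 genes with a row of their own in the table of RPKM, out of 21574 rows, whose symbol is DDX or DHX followed by a number. The rule uses the name and no measured value, so that membership does not show that a gene encodes a helicase. Of the 52 rows that fit this pattern, 3 were left out because they are usually grouped with the proteins that bind or sense double-stranded RNA, and Y-linked symbols were left out as well. A further 4 rows join a helicase symbol with another symbol, among them that of DDX5, and were not counted as members. The libraries are labelled HepG2, a line from a human liver carcinoma, transfected with control siRNA or with siRNA against ADAR1 (KD). Of the 14 libraries, 8 are PARS-seq (2 control and 2 KD for either nuclease), 4 are Ribo-seq (2 control and 2 KD) and 2 are RNA-seq (1 control and 1 KD). PARS-seq maps cuts by S1 nuclease, which prefers single-stranded RNA, and by RNase V1, which prefers double-stranded RNA. Ribo-seq counts the fragments of mRNA that ribosomes protect. RPKM is the number of reads divided by the length of the transcript in kilobases and by the mapped reads of the library. It thus allows for length and depth. In Ribo-seq, ribosomes mainly cover the coding part, while the authors counted on whole transcripts. Ribo-seq RPKM, and its ratio to RNA-seq, therefore also carry the coding share of a transcript. In the transcripts matched here, 1449 of 6128 bases are coding in DDX6 and 4107 of 4664 in DHX29. The part of this share in the ratios was not tested.

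These helicases use ATP to unwind short RNA duplexes or to strip proteins from RNA. They share a helicase core with a set of short conserved motifs, and the 2 families take their names from motif II, which reads DEAD or DEAH in the one-letter code of amino acids and binds the magnesium and ATP. DEAH-box proteins drive the rearrangements of the spliceosome, many DEAD-box proteins act on the ribosomal RNA precursor in the nucleolus, and others act in mRNA export, translation and decay. ADAR1, the target of the siRNA, deaminates adenosine in RNA duplexes.

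The stretches of coding sequence around motif II are shown for 11 members because they carry the same amino acids in different codons, and the members differ in base composition in the way that the ratios of Ribo-seq to RNA-seq below differ. They were read from GENCODE transcripts on GRCh37, run 5′ to 3′ on the coding strand, and have the 12 bases that encode DEAD or DEAH in capitals. The first 4 are DEAD boxes of members with a ratio above 0 on the log2 scale, the next 3 are DEAD boxes of members with a low ratio, and the last 4 are DEAH boxes, 2 from members with a ratio above 0 and 2 from members with a low ratio. DDX54 has a low ratio with 1 of its 4 box codons ending in G or C. It is shown as 1 of 9 members with 0 or 1 such codon and a ratio below 0, and the stretches were picked by ratio, so they do not show how often box and ratio go together. Coordinates are those of the transcript.

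DDX1 (chr2:15731992-15771225, plus strand): ctggtcctgGATGAAGCTGATgggcttctt
DDX3X (chrX:41193415-41209527, plus strand): ttggtgttaGATGAAGCTGATcggatgttg
DDX6 (chr11:118618472-118661873, minus strand): atagtattgGATGAGGCAGATaagttgctg
DDX20 (chr1:112298523-112310622, plus strand): tttattcttGATGAAGCAGATaagctttta
DDX54 (chr12:113594978-113623283, minus strand): gtggtgttcGATGAAGCTGACcggcttttt
DDX41 (chr5:176938578-176943962, minus strand): ctggccctgGACGAGGCTGACcgcatgatc
DDX51 (chr12:132621139-132628864, minus strand): ctgattatcGACGAGGCTGACcggatgatt
DHX15 (chr4:24529098-24586177, minus strand): ataattcttGATGAGGCTCATgagaggaca
DHX40 (chr17:57642971-57685706, plus strand): attattttgGATGAAGCCCATgaaagaact
DHX38 (chr16:72127746-72146811, plus strand): atcatcatgGACGAGGCCCACgagcgctcc
DDX11 (chr12:31226794-31257733, plus strand): gtgatcatcGACGAGGCGCACaacctgatc

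A coding transcript was found for 48 of the 49 members, all but DDX26B. Of 35 DDX members, 28 encode DEAD, 1 encodes DEAH (DDX11) and 6 encode neither string. Of 13 DHX members, 8 encode DEAH, 4 encode neither, and DHX29 encodes DEAD at codon 1119 of 1369. Among 19528 coding transcripts of all genes, 0.855% encode DEAD and 0.394% encode DEAH anywhere. A match is a string of letters, and the absence of a match says only that these letters are not in this transcript.

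The siRNA target was checked first. ADAR was at 54.8 RPKM in RNA-seq control and 15.4 in RNA-seq KD. In Ribo-seq it was at 43.6 and 55.5 RPKM in control replicates 1 and 2, at 8.73 in KD replicate 1 and at 44.03 in the library labelled KD replicate 2, which lies within the control values. In PARS-seq the authors' means were 40.7 and 46.8 RPKM in control and 15.1 and 15.1 in KD. All comparisons of Ribo-seq KD with control therefore include a library in which ADAR was below control replicate 2 but not below control replicate 1, and values of each pair are given separately. A pair here is a control and a KD library with the same replicate number, and no label says that they were made together. The 7 hepatocyte markers, among them ALB, AFP and APOB, were between 0 and 0.0821 RPKM in every column, so that the labelled cell type lacks its defining markers here. Of 6 markers of other cell types, COL1A1 was at 9.75 to 54.7 RPKM, and COL3A1, in a row joined with 2 microRNAs, at 6.14 to 96.2, while PTPRC, CD14, PECAM1 and VWF reached at most 1.02. The part of the cell type in any result below was not tested. In such bulk samples, fewer cells of a type and less RNA per cell cannot be told apart.

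The Ribo-seq libraries were shallow. By the most common ratio of RPKM among low genes, taken as 1 read against 1 read, their depth was 2.44 to 8.16% of that of RNA-seq control, and RNA-seq KD had 74.2% of it. The RPKM of each member that passed the level filter are whole multiples of a common step in all 6 libraries, and the fewest whole numbers of reads that give them were taken as the reads behind each value. A member had a median of 60 and 89 reads in Ribo-seq control 1 and 2, 82 and 96 in KD 1 and 2, and 2122 and 1640 in RNA-seq control and KD. In 6 of 43 members, a Ribo-seq library held fewer than 20 reads. Intervals made from these reads cover counting error only. Over 11165 genes, Spearman's correlation was 0.952 between Ribo-seq control 1 and KD 1 and 0.938 between control 2 and KD 2, against 0.769 between the control replicates and 0.832 between the KD replicates. Libraries with the same number were thus more alike than libraries of the same condition.

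Of the 49 members, 43 had a mean of at least 1 RPKM over the 6 RNA-seq and Ribo-seq libraries (87.8%, against 51.8% of all rows). The other 6 were at most at 0.0387 RPKM in this mean. They are DDX4, DDX43 and DDX53, which are known from the germline, DDX25, a testis helicase, DDX26B, and DHX16, a spliceosome helicase that was listed at 0 in all 10 columns. SKIV2L, a related helicase under another symbol, was also at 0 in all 10 columns. Only uniquely aligned reads were counted, so a 0 does not show that a gene is silent, and its cause was not tested. The member means ran up to 133 RPKM, with a median of 11.8 among the 43 members against 9.44 among all rows above 1 RPKM.

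**Figure D1:**
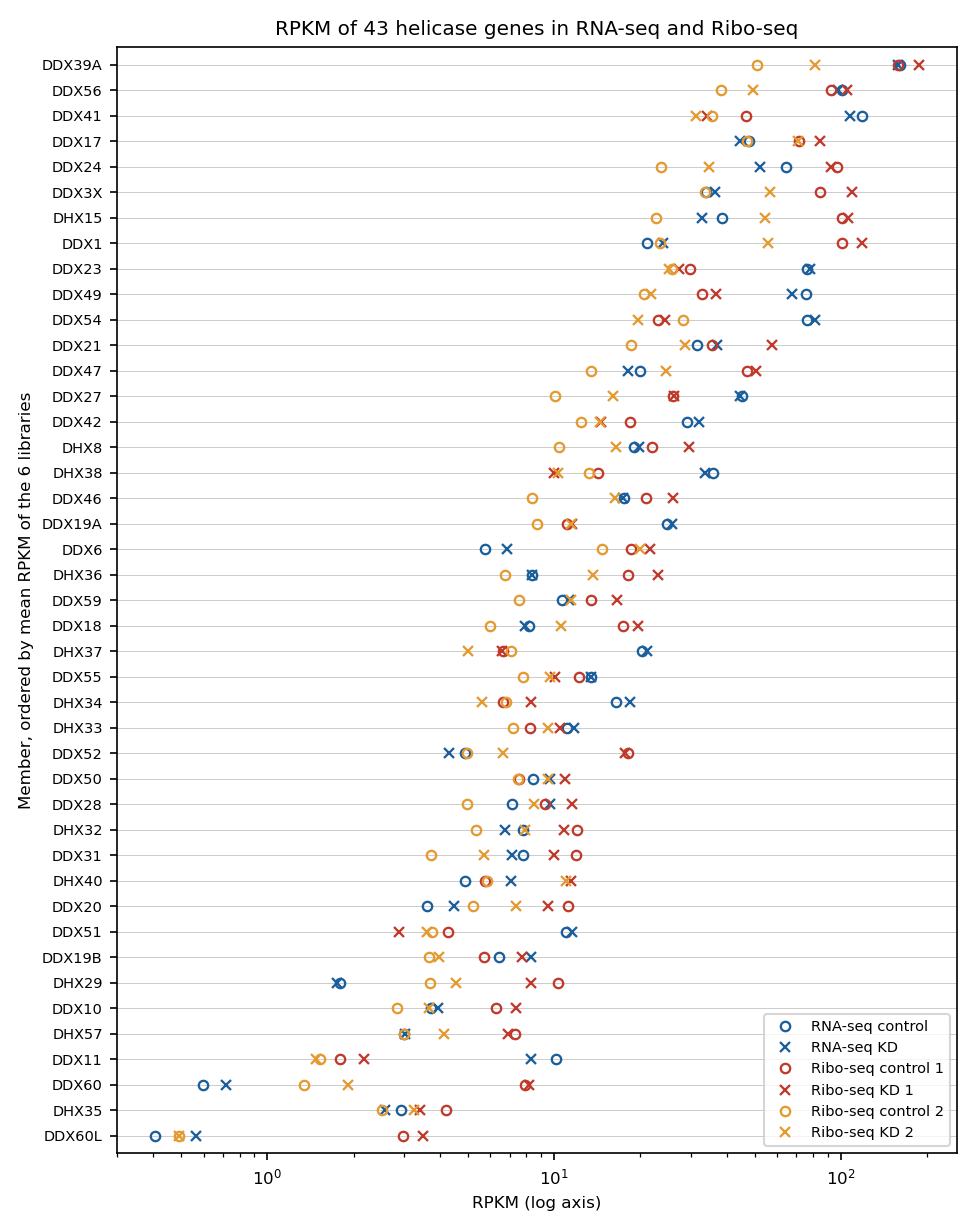
RPKM (log axis) of the 43 members above the level filter in each of the 6 RNA-seq and Ribo-seq libraries, 1 row per member, ordered by the mean. Circles are control and crosses KD, with the colour giving the assay and the Ribo-seq replicate. In Ribo-seq control, replicate 2 lies below replicate 1 for 39 of 43 members.

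DDX39A, an mRNA export helicase, had the highest mean, with 160.4 and 159 RPKM in RNA-seq control and KD, 159 and 50.8 in Ribo-seq control 1 and 2, and 187 and 81.4 in KD 1 and 2. DDX56, a nucleolar helicase of ribosome assembly, had 101 and 97.9 RPKM in RNA-seq, 92.1 and 38.1 in Ribo-seq control and 105 and 49.5 in KD. DDX41, a spliceosome helicase, had 119 and 108 RPKM in RNA-seq, 46.8 and 35.6 in Ribo-seq control and 34.2 and 31.2 in KD. Both are high in RNA-seq, but DDX41 is lower than DDX56 in each of the 4 Ribo-seq libraries. DDX17, a coregulator of transcription and splicing, had 47.9 and 44.4 RPKM in RNA-seq, 71.2 and 47.0 in Ribo-seq control and 84.3 and 70.7 in KD. DDX24 of the nucleolus had 64.6 and 52.4 RPKM in RNA-seq, 96.8 and 23.6 in Ribo-seq control and 92.3 and 34.7 in KD. DDX3X, which helps ribosomes through structured leaders of mRNAs, had 33.9 and 36.4 RPKM in RNA-seq, 84.7 and 33.6 in Ribo-seq control and 110 and 56.6 in KD. The means of DDX41, DDX17, DDX24 and DDX3X, 62.4, 60.9, 60.7 and 59.2 RPKM, differ by less than the gap between the Ribo-seq controls of each.

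By role, the 8 spliceosome members above the filter had a median of 19.8 RPKM, the 16 ribosome assembly members 11.4, the 8 export, translation and decay members 13.8, and the 8 members of transcription and other nuclear steps 8.06. The mitochondrial DDX28, which acts in assembly of the mitochondrial ribosome, was at 8.52 RPKM. The interferon-induced DDX60 and DDX60L were at 3.45 and 1.40. DDX60 stood at 0.594 and 0.719 RPKM in RNA-seq but at 7.94 and 8.21 in Ribo-seq pair 1 and at 1.34 and 1.92 in pair 2. Both Ribo-seq pairs lay above RNA-seq, and pair 1 lay well above pair 2.

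The ratio of Ribo-seq to RNA-seq RPKM was compared on the log2 scale with 1 added to each RPKM. In control, the median over the 43 members was −0.17, against −0.47 over all 11165 genes tested, with 18 members above 0 and 25 below. The 2 replicates place the members on opposite sides of the genes at large. In replicate 1 the median of the members was 0.24 against −0.34 for all genes, and in replicate 2 it was −0.68 against −0.55. The lowest ratios in control belonged to DDX11, a DNA helicase of sister chromatid cohesion, DDX54 of ribosome assembly and DDX41. DDX11 had 1619 reads and 10.1 RPKM in RNA-seq control but 7 and 20 reads, 1.79 and 1.53 RPKM, in the Ribo-seq controls. Its log2 ratio was −1.99 and −2.13 in the control replicates. DDX54 had 76.05 RPKM in RNA-seq control against 23.0 and 28.1 in Ribo-seq, and log2 ratios of −1.68 and −1.41. DDX41 had log2 ratios of −1.32 and −1.71. In these 3 members both Ribo-seq controls lay below RNA-seq, and the replicates were close to each other.

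The highest ratios belonged to DDX60, DHX29, which aids scanning by the small ribosomal subunit, and DDX6, a helicase of mRNA decay and translational repression. DDX6 had 5.75 RPKM in RNA-seq control and 18.6 and 14.7 in the Ribo-seq controls, with log2 ratios of 1.54 and 1.22. DHX29 had 1.79 RPKM in RNA-seq control and 10.3 and 3.70 in the Ribo-seq controls, from 46 and 55 reads, with log2 ratios of 2.02 and 0.75. DDX60 had log2 ratios of 2.49 and 0.55. DDX6 alone among these 3 was alike in both replicates. DDX60 and DDX60L are below 1 RPKM in both RNA-seq libraries and passed the level filter only through Ribo-seq, so that a high ratio was fixed by the filter and supports nothing.

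The ratio was tested with limma on log2(RPKM + 1) over all genes, averaged over both conditions, with each RNA-seq library assumed to vary like the Ribo-seq replicates. It called 48 of 11165 genes, or 0.43%, at a Benjamini-Hochberg adjusted p under 0.05, and 0 of the 43 members. At an unadjusted p under 0.05 there were 13 members, 2 of them with a higher and the others with a lower ratio, against 31.6% of all genes. DDX11, at −1.90 ± 0.35 (SE, 4 Ribo-seq and 2 RNA-seq libraries), and DDX54, at −1.70 ± 0.38, both had an adjusted p of 0.0927 by limma, the lowest among the members, which DHX37 of ribosome assembly shared at −1.58 ± 0.35. DDX41 was at −1.60 ± 0.39 and DDX6 at 1.42 ± 0.35, with adjusted p of 0.0943 and 0.0947 by limma. DHX29 was at 1.39 ± 0.52 and DDX60 at 1.56 ± 0.77, with adjusted p of 0.151 and 0.230 by limma. The 95% interval of a member's ratio reached 1.16 log2 units to either side in the median.

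The ratio of the members followed the base composition of their transcripts. Over the 43 members, with 38.4 to 61.6% G and C, Spearman's correlation between the log2 ratio in control and the percentage of G and C was −0.82, and Pearson's was −0.83. Over the 9303 of 11165 genes matched to a transcript it was −0.77. These points share the libraries, and base composition was not separated from transcript length or role, so that the values are a description. Of the 21 members with the fewest G and C bases, at 45.03% or less, 17 had a ratio above 0 and their median was 0.33. Of the other 22 members, 1 had a ratio above 0, and their median was −1.03. DDX60 and DDX60L, whose high ratio was fixed by the filter, are among the 17 and in the correlations. No value without them was computed. The relation held in each replicate, with −0.77 in both.

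**Figure D2:**
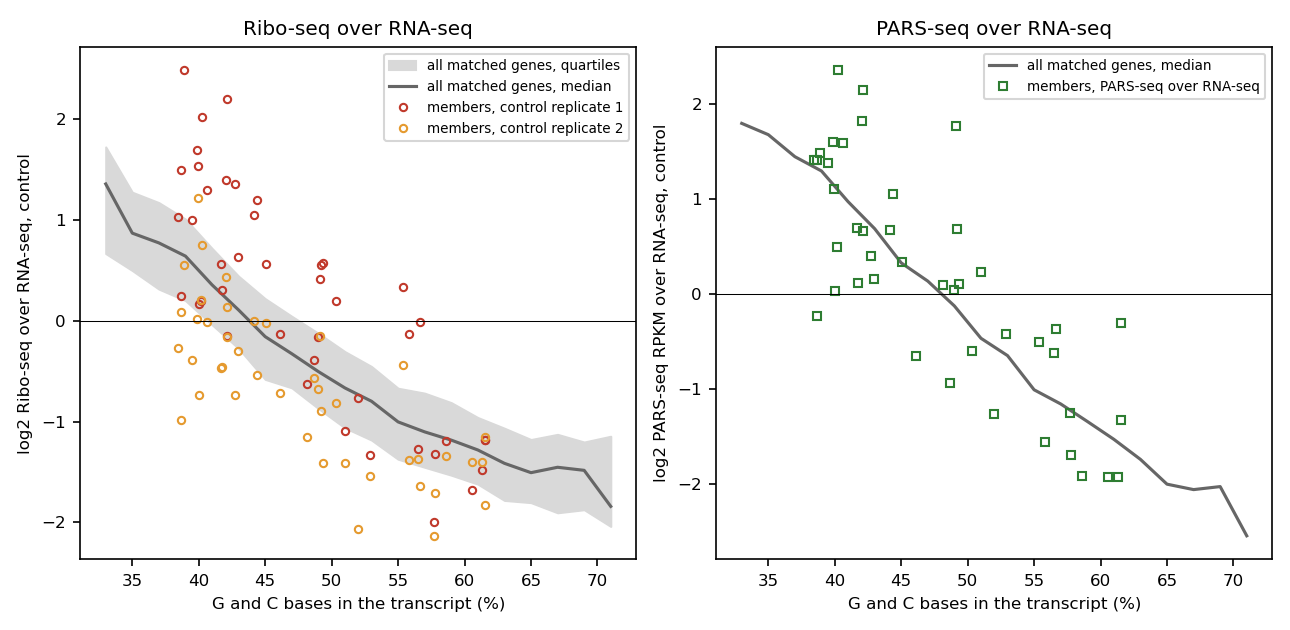
Percentage of G and C bases in the transcript (x) against the log2 ratio of Ribo-seq to RNA-seq in control (left, each replicate as a circle) and of the authors' mean PARS-seq RPKM to RNA-seq in control (right, squares), for 43 members. Grey lines are the medians over all matched genes in steps of 2 percentage points and the grey band on the left their quartiles. Members fall from left to right in both panels, with Spearman's correlations of −0.82 and −0.76.

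The ratio of PARS-seq RPKM to RNA-seq in control had a correlation of −0.76 with G and C content over the members and −0.78 over all matched genes. Where RNA-seq was left out, and Ribo-seq was set over PARS-seq RPKM, the correlation was 0.27 over the members and 0.42 over all matched genes. The ratios to RNA-seq share the same single RNA-seq library, and the part of library preparation was not tested. Among 31 members above the filter with a box sequence, leaving out DHX29, 6 had 3 or 4 of the 4 codons ending in G or C. All 6 had a ratio below 0, with a median of −1.43. Their median G and C content was 57.7%. All matched genes in the step centred on 57% had a median ratio of −1.10 and an upper quartile of −0.72. Of the 17 members with 0 or 1 such codon, 8 were above 0, and the median was −0.08. Over all genes tested, 34.0% had a ratio above 0.

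Against genes whose G and C content lay within 1 percentage point, the members spread less. The difference from the median of these genes ran from −1.02 to 0.97, with an SD over members of 0.52, where the ratio itself ran from −2.06 to 1.52, with an SD of 0.92. DDX54 and DDX41 then differed from genes of like composition by −0.28 and −0.40, and 29.2% and 19.7% of those genes had a lower ratio. DDX11, from 7 and 20 reads in the Ribo-seq controls, remained low at −0.94, with 5.54% of like genes below it. Only uniquely aligned reads were counted, and the part of alignment in this value was not tested. DHX29 and DDX6 remained high at 0.93 and 0.90, and DDX60, which the filter chose for high Ribo-seq values, was at 0.87. With each library centred on its own curve over G and C content, an alternative added after the data were seen, limma called 1 of 9303 genes and 0 members. The ratio averaged over conditions was then −1.02 ± 0.38 (SE) for DDX11, 0.45 ± 0.42 for DHX29, 0.46 ± 0.35 for DDX6 and 0.47 ± 0.63 for DDX60. DDX54 and DDX41 were then at −0.65 ± 0.39 and −0.73 ± 0.43. Named after their values were seen, DDX1, a subunit of the tRNA ligase complex, was the highest at 0.97, followed by DDX28 at 0.96, and DDX46 of the spliceosome was the lowest at −1.02. The control replicates behind these means were far apart, with log2 ratios of 2.20 and 0.14 for DDX1, 0.34 and −0.44 for DDX28 and 0.24 and −0.98 for DDX46. DDX28 had 55.4% G and C and a ratio of −0.05, where genes of like composition had a median of −1.02.

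RNA-seq with 1 library per condition shows little movement of the helicases after ADAR1 silencing. The log2 ratio of KD to control on the RPKM + 1 scale ran from −0.30 to 0.45 over the 41 members with a mean of at least 1 RPKM in RNA-seq, with a median of 0.01 against −0.01 over 10946 genes. No member was past a fold of 1.5 in either direction, where 4.47% of all genes were past it upward and 4.66% downward. There is no replicate and no test for this comparison. DHX40 had the largest ratio upward, from 4.90 RPKM and 732 reads to 7.06 RPKM and 782 reads, a ratio of 1.44 with a 95% counting interval of 1.30 to 1.60 by the exact binomial method. DDX24 had the largest downward, from 64.6 to 52.4 RPKM, a ratio of 0.812 with a counting interval of 0.783 to 0.842. For comparison, ADAR had a ratio of 0.280 with a counting interval of 0.270 to 0.291.

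**Figure D3:**
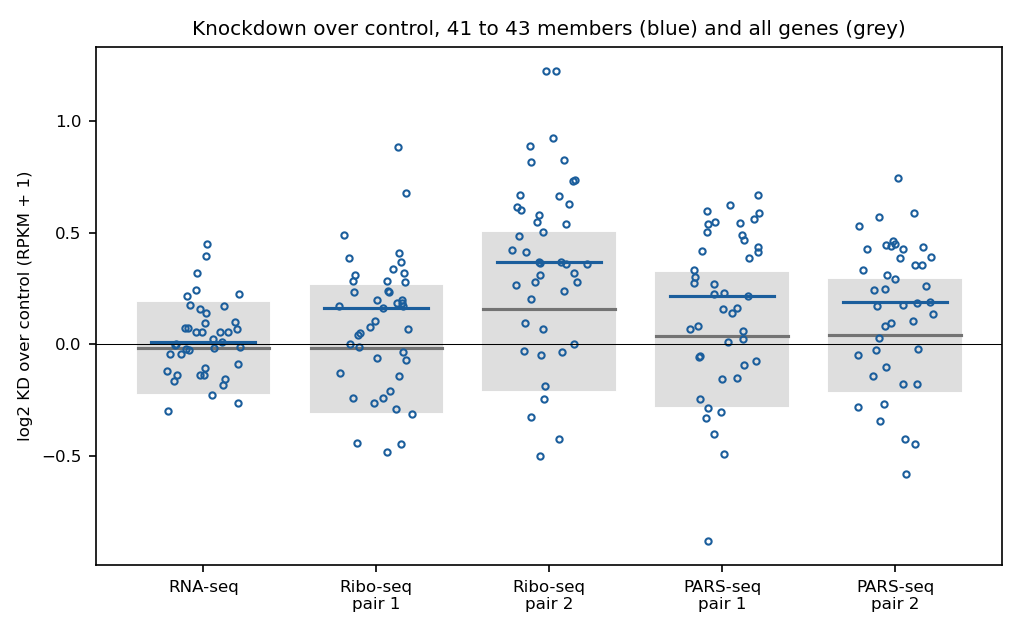
Log2 ratio of KD to control (RPKM + 1) in RNA-seq, in both Ribo-seq pairs and in both PARS-seq pairs. Blue circles are members (41 in RNA-seq and 43 elsewhere) and blue lines their medians, and grey lines and boxes are the medians and quartiles over all genes above the filter. The members' median lies at 0.01 in RNA-seq, 0.16 and 0.37 in Ribo-seq and 0.22 and 0.19 in PARS-seq.

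In Ribo-seq, the median of KD over control was 0.16 in pair 1 and 0.37 in pair 2 over the 43 members, against −0.02 and 0.16 over 10882 genes. Both pairs were higher for 25 members, where 31.3% of all genes were, and lower for 5, where 21.8% of all genes were. The values of pair 2 go with G and C content, with a correlation of −0.51 over members and over all genes, while those of pair 1 had −0.27 and −0.07. limma called 0 of 10882 genes and 0 of 43 members (0% of genes). At an unadjusted p under 0.05 there were 43 genes and 0 members. The 95% intervals of the members' differences reached between 0.96 and 2.24 log2 units to either side, with a median of 1.32, so that a difference of 1 log2 unit lay within these limits for most members. Control and KD values did not overlap for 5 members with higher KD values, DDX6, DDX19A, DDX50, DHX33 and DHX40, where 10.7% of genes were of this kind. They did not overlap for 4 members with lower KD values, DDX41, DDX51, DHX37 and DHX38, where 7.12% of genes were. Both shares of the members, 11.6% and 9.30%, are near those of the genes at large. Without the library labelled KD replicate 2, in which ADAR lay between the controls, 27 members had a KD value above both controls, where 32.2% of all genes had, and 4 below both, where 24.99% of all genes had. Without control replicate 1 the counts were 35 higher and 5 lower, where 47.8% and 27.8% of all genes were. Without control replicate 2 they were 5 and 15, beside 25.9% and 33.7% of genes, and without KD replicate 1 they were 5 and 8, beside 24.2% and 17.1%.

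DHX40 had the largest rise that both pairs shared. It was at 5.75 and 5.83 RPKM in the Ribo-seq controls, from 21 and 71 reads, and at 11.5 and 10.998 in KD, from 59 and 97 reads. Both KD values lay above both controls. The difference was 0.85 ± 0.38 (SE, 4 libraries) on the log2 scale, with a 95% interval of −0.11 to 1.81 and an adjusted p of 1.00 by limma. It was between 0.82 and 0.88 whichever library was left out. Of the other members, DDX1 went from 101 to 118 RPKM in pair 1 and from 23.4 to 55.8 in pair 2, a difference of 0.73 ± 0.86. DHX15, which takes spliceosomes apart, went from 101 to 106 RPKM in pair 1 and from 22.8 to 54.5 in pair 2, a difference of 0.65 ± 0.85. Both rest on the low values of control replicate 2. Without it, DDX1 was at −0.30 and DHX15 at −0.40.

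The largest falls shared by both pairs were smaller. DHX38, which acts in the second step of splicing, went from 14.3 to 9.96 RPKM and from 13.2 to 10.4, a difference of −0.40 ± 0.39. DDX41 went from 46.8 to 34.2 RPKM and from 35.6 to 31.2, a difference of −0.31 ± 0.46. DDX51 of ribosome assembly went from 4.26 to 2.87 RPKM and from 3.76 to 3.61, a difference of −0.24 ± 0.39. These DDX51 values rest on 20 and 19 reads in pair 1 and on 59 and 41 in pair 2. Both KD values lie below both controls in each of these members, and each 95% interval includes 0. Without control replicate 1 DDX41 was at −0.12 and without control replicate 2 at −0.51. Without KD replicate 1 DDX51 was at −0.12 and without KD replicate 2 at −0.37. With libraries centred on G and C content, DHX38, DDX41 and DDX51 were at −0.26, −0.16 and −0.075.

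The change of the ratio of Ribo-seq to RNA-seq was tested as an interaction in 1 model over both assays. It called 0 of 11165 genes (0%) and 0 of 43 members, and at an unadjusted p under 0.05 there were 4 genes and 0 members. The members' estimates ran from −0.31 for DHX38 to 0.87 for DHX15, with a median of 0.25 against 0.10 over all genes. The 95% intervals reached at least 1.70 log2 units to either side.

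PARS-seq RPKM were deposited as the authors' mean of an S1 and a V1 library for each replicate, and carry no SD or test here. The median log2 ratio of KD to control was 0.22 and 0.19 in the replicates over 43 members, against 0.04 and 0.04 over 11153 genes. Control and KD values did not overlap for 20 members with higher KD values, 46.5% of members against 33.3% of genes, and for 8 with lower KD values, 18.6% against 27.1%. Past a fold of 1.5 were 2 members upward, where 8.48% of genes were, and 1 downward, where 8.42% of genes were.

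DDX39A was the member with the largest rise in PARS-seq, from 116 and 134 RPKM in control to 175 and 225 in KD. Its RNA-seq values, 160.4 and 159 RPKM, differed by a ratio of 0.990 with a counting interval of 0.963 to 1.02. DDX20, a subunit of the SMN complex that assembles spliceosomal snRNPs, went from 15.5 and 15.1 RPKM to 24.5 and 22.8 in PARS-seq. In RNA-seq it went from 3.61 to 4.46, a ratio of 1.24 with a counting interval of 1.09 to 1.40, and in Ribo-seq from 11.2 to 9.53 in pair 1 and from 5.23 to 7.34 in pair 2. DDX60 went the other way, from 4.503 and 2.65 RPKM in control to 1.99 and 1.44 in KD, while its RNA-seq and Ribo-seq values were slightly higher in KD. DDX60L was at 2.67 and 2.84 RPKM in control and 2.10 and 1.82 in KD. DHX40 went from 9.09 and 5.82 RPKM to 13.9 and 9.25, and was thus higher in KD in all 5 pairs of columns. So were DDX1, DDX3X, DDX6, DDX10, DDX19A, DDX21, DDX28, DHX8, DHX33 and DHX36, so this trait is not particular to DHX40. The share of all genes with this trait was not computed.

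**Figure D4:**
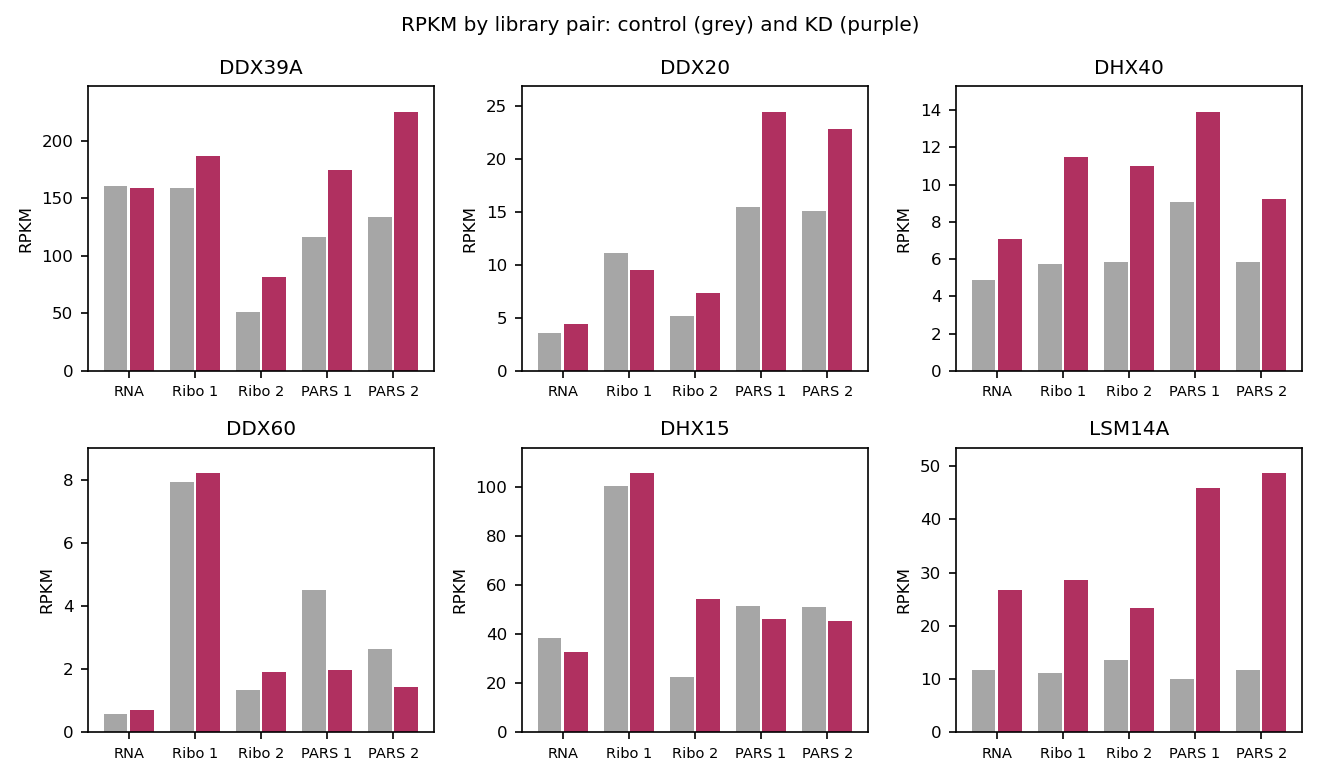
RPKM of 5 members and of LSM14A, a partner of DDX6, in control (grey bars) and KD (red-purple bars) for RNA-seq, both Ribo-seq pairs and both PARS-seq pairs, where PARS-seq bars are the authors' means. Each bar is 1 column of the table, so that there are no error bars. Of the genes shown, DHX40 and LSM14A are higher in KD in all 5 pairs, and DDX60 is lower in KD in PARS-seq alone. Members not shown were also higher in all 5 pairs.

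Read starts were summed for the 10 members whose UCSC transcript could be paired with a symbol in the part of the study's supplementary list that was used here, which is shortened. Other helicases may be in the rest of that list. That list was chosen on a structure ratio of these same libraries, so it is not an independent sample of the family. Between 96618292 and 214584779 read starts were listed per library. Of transcripts, S1 control replicate 1 has only 4722, all 10 of the members' included, where every other library has 21052 or more. limma on log2 scaled read starts called 738 of 4721 transcripts in S1, 15.6%, and 310 of these, 6.57% of those tested, were higher in KD. It called 1 of the 10 members, DDX20, as higher, and 3 members had an unadjusted p under 0.05, where 29.3% of transcripts had. DDX20 had 3914 and 4102 scaled S1 read starts in the controls and 6659 and 6240 in KD, a log2 difference of 0.69 ± 0.21 (SE, 4 libraries) with an adjusted p of 0.0272 by limma. Both KD values lay above both controls. With libraries scaled by their totals, the difference was 0.32 with an adjusted p of 0.458 by limma, and the call was lost. When any 1 library was left out the difference was 0.64 to 0.73, with adjusted p from 0.0532 to 0.147 by limma, and the call was lost.

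With V1, limma called 1754 of 16982 transcripts, 10.3%, and 0 of the 10 members, of which 3 were below an unadjusted p of 0.05, where 25.6% of transcripts were. DDX20 had 3212 and 2926 scaled V1 read starts in the controls and 4615 and 4363 in KD, a difference of 0.55 ± 0.19 with an adjusted p of 0.0910 by limma. Both nucleases thus gave more read starts on DDX20 in KD. Read starts and the PARS-seq RPKM come from the same libraries, and are not independent. DDX46 was next, with 4621 and 5483 scaled S1 read starts in the controls and 7220 and 7460 in KD, and 5911 and 6297 scaled V1 read starts against 7801 and 8730. Its differences were 0.54 ± 0.21 with S1 and 0.44 ± 0.19 with V1, with adjusted p of 0.0824 and 0.173 by limma. DHX35, which joins the spliceosome at its catalytic steps, had the lowest V1 difference, with 3658 and 2596 scaled read starts in the controls and 2384 and 1980 in KD, −0.50 ± 0.22, adjusted p = 0.187 by limma. Without V1 control replicate 1 it was at −0.26, with an adjusted p of 0.659 by limma, and without V1 control replicate 2 at −0.75, with an adjusted p of 0.0260 by limma. The other 7 members, DDX18, DDX24, DDX41, DDX47, DDX50, DDX56 and DHX15, had differences from −0.28 to 0.45 with S1 and from −0.40 to 0.21 with V1. Over the 10 members the median difference was 0.07 with S1 and 0.00 with V1.

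**Figure D5:**
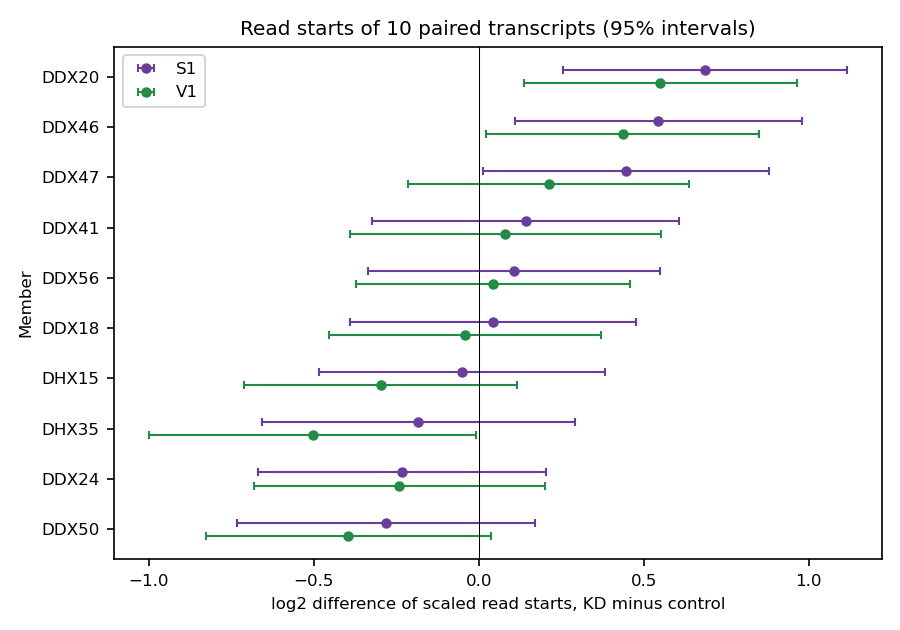
Log2 difference of scaled read starts between KD and control (x) for the 10 members with a paired transcript (y), with S1 in purple and V1 in green. Points are limma estimates over 4 libraries and bars their 95% intervals. DDX20 lies furthest to the right with both nucleases, at 0.69 and 0.55.

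By role, in Ribo-seq the median difference between KD and control was −0.02 over the 8 spliceosome members, 0.24 over the 16 ribosome assembly members, 0.27 over the 8 export, translation and decay members and 0.29 over the 8 members of transcription and other nuclear steps, beside 0.08 over all genes. None of these members was called. The pairs differed, with medians of −0.18 and 0.23 in pairs 1 and 2 over the spliceosome members, 0.09 and 0.36 over ribosome assembly, 0.26 and 0.39 over export, translation and decay, and 0.21 and 0.52 over transcription and other nuclear steps. Pair 2 holds the KD library in which ADAR lay between the controls. In PARS-seq RPKM the median was 0.36 over the spliceosome members, with 6 of 8 above 0, and 0.18 over ribosome assembly, with 12 of 16. It was 0.18 over export, translation and decay, with 7 of 8, and 0.11 over transcription and other nuclear steps, with 5 of 8, beside 0.04 over all genes, of which 53.97% were above 0. The ratio of Ribo-seq to RNA-seq in control had a median of −0.63 over the spliceosome members, −0.42 over ribosome assembly, −0.02 over export, translation and decay, 0.23 over transcription and other nuclear steps and 1.15 over the 2 interferon-induced members, which passed the filter only through Ribo-seq. Control replicates 1 and 2 were far apart in each of these groups. They gave −0.22 and −1.07 for the spliceosome members, −0.13 and −0.82 for ribosome assembly, 0.51 and −0.47 for export, translation and decay, 0.56 and −0.015 for transcription and other nuclear steps, and 1.99 and 0.32 for the interferon-induced members.

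Related helicases that carry other symbols and known partners of the helicases were read as lists. Of 14 related helicases, 12 have a row of their own and 9 passed the level filter, and limma called 0 of the 9 in Ribo-seq, in the ratio and in its change. In RNA-seq, 2 of the 9 were above 0, with a median of −0.11, beside 47.97% of all genes and a median of −0.01. Among them, EIF4A3 of the exon junction complex was at 81.3 and 117 RPKM in RNA-seq control and KD, at 141 and 196 in Ribo-seq pair 1 and at 30.02 and 74.3 in pair 2. Of 23 cofactor names, 19 have a row of their own, and of the other 4, THOC4 and RTCB are further names of ALYREF and C22orf28, which have one. All 19 passed the level filter, and limma called 0 in the same 3 tests. In RNA-seq, 7 of the 19 were above 0, with a median of −0.05, beside the same 47.97% of all genes. The lowest was GEMIN2, which binds SMN in the complex that also holds DDX20, at 4.88 and 2.41 RPKM in RNA-seq control and KD, at 13.3 and 12.6 in Ribo-seq pair 1 and at 3.76 and 7.34 in pair 2. Among the related helicases the lowest was MOV10, at 20.95 and 15.4 RPKM in RNA-seq. LSM14A, which binds DDX6 in granules of repressed mRNA, was at 11.7 and 26.8 RPKM in RNA-seq control and KD. In Ribo-seq it went from 11.2 to 28.7 RPKM in pair 1 and from 13.6 to 23.4 in pair 2, and in PARS-seq from 10.1 to 46.0 and from 11.7 to 48.6. KD values lay above control values in all 3 assays, with a log2 difference of 1.01 in Ribo-seq that limma did not call. DDX6 itself was at 5.75 and 6.84 RPKM in RNA-seq and at 12.6 and 14.6 in PARS-seq control against 17.4 and 18.9 in KD. ALYREF, which works with DDX39A in mRNA export, was at 88.7 and 148 RPKM in RNA-seq, and at 37.7 and 46.9 in PARS-seq control against 67.0 and 90.6 in KD. EIF4A3, MOV10, GEMIN2, LSM14A and ALYREF were named after their values were seen.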

How the data were processed

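RNA-seq and Ribo-seq reads that aligned uniquely to hg19 were counted by the authors on RefSeq transcripts, and the deposited RPKM table was used as it stands. Its PARS-seq RPKM columns are the authors' mean of an S1 and a V1 library. The other deposited files hold, for each PARS-seq library, the counts of read starts at every base of UCSC transcripts, which the authors made from reads aligned uniquely to those transcripts, and these were summed per transcript. The labels' processing notes name cutadapt and Bowtie2. Columns that could not be tied to a sample numbered 0. The members and gene lists were chosen with earlier results of these data known.

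Differences were tested with limma 3.58.1 (R 4.3.3, eBayes with a trend on the mean). RPKM entered as log2(RPKM + 1), keeping genes that averaged 1 RPKM or more over the libraries of the fit, and read starts as log2(scaled read starts + 0.5), with median-of-ratios scaling, for transcripts listed in all 4 libraries with a mean of at least 10. P-values were two-sided, Benjamini-Hochberg adjusted over all features tested, and called under 0.05. limma was used for read starts because the files hold 1 number per base in each cell. The fits were tested on simulated data. The study calls the replicates biological, and the sources used here do not say whether cultures, transfections or days were separate, so p-values measure the spread between these samples. For 2 against 2 libraries, the smallest two-sided p of an exact permutation test is 0.333. Numbers of reads were recovered with a tolerance of 0.005 from a whole number. Transcripts, base composition and coding sequences came from GENCODE release 44 on GRCh37, with 1 canonical coding transcript per gene, matched by symbol or by an older symbol that names a single gene. Tables were made with Python 3.11.15, numpy 2.4.6, scipy 1.17.1 and pandas 2.3.3, and figures with matplotlib 3.10.9.

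Named with values were the 6 members with the highest mean RPKM, members called in a test, the 3 largest rises and 3 largest falls shared by both Ribo-seq pairs, the 3 highest and 3 lowest ratios in control, members past the fold in RNA-seq and in the same direction in PARS-seq, of which there were 0, and the 10 members with a paired transcript. Alternatives covered the pseudocount, the filter, the scaling, the trend, a replicate block, the fold and leaving out each replicate, except the single RNA-seq libraries and the PARS-seq columns in the counts of values that do not overlap. DDX28, DDX46, members past the fold in PARS-seq and genes of the 2 wider lists were named after their values were seen. Centring on base composition, and leaving out Ribo-seq libraries from the counts of values that do not overlap, were added after the data were seen.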

Additional observations from a re-analysis of the deposited data

How the results depend on the processing

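With each alternative changing 1 choice, 77 of 99 alternative values of the counts stayed within 1.5 times the reported count, but 48 of the 77 are 0 against 0 and show no stability. For the ratio of Ribo-seq to RNA-seq, limma called 9 members with no filter on low values, among 2333 of 17793 genes (13.1%), and 22 with a replicate block, among 6678 of 11165 genes (59.8%), against 0. For the change of the ratio it called 1 with no filter, DDX53, which is near 0 RPKM, and 4.63% of genes. The numbers do not pair the libraries by any label. Same-numbered libraries deviated together, with correlations of 0.81 in Ribo-seq, 0.46 in S1 and 0.47 in V1, in 2 pairs each. With S1 read starts, 0 members were called with scaling by totals, 3 with the replicate block, which called 30.8% of transcripts, and 0 without any 1 library, against 1. With V1, 4 were called with the replicate block, which called 34.4% of transcripts, and 0 to 1 without 1 library, against 0. In Ribo-seq KD against control the block called 143 genes and 0 members, and it changed no other count of members.

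In PARS-seq, members past the fold upward numbered 7 with a pseudocount of 0.1, where 11.997% of genes were past it, 1 with columns shifted to 1 median, where 7.24% were, 0 at a fold of 2 (1.53% of genes) and 2 to 4 without a replicate (8.11 to 10.3%), against 2. Those downward numbered 0 with a mean of at least 5 RPKM (9.23% of genes), 0 at a fold of 2 (2.61%) and 0 to 1 without a replicate (7.73 to 10.02%), against 1. Ribo-seq values that do not overlap, without 1 library, ranged from 5 to 35 members upward and from 4 to 15 downward, beside 24.2 to 47.8% and 17.1 to 33.7% of all genes.

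Scaling by totals moved all members alike, by −0.37 in S1 and −0.16 in V1. It reversed DDX18, DDX41 and DDX56 in S1, to −0.33, −0.23 and −0.26, and DDX41 and DDX56 in V1, to −0.078 and −0.11. Without 1 library, Ribo-seq differences ranged from −0.30 to 1.76 for DDX1 and from −0.40 to 1.69 for DHX15. In S1 they ranged from −0.061 to 0.15 for DDX18, −0.13 to 0.41 for DDX41, −0.059 to 0.27 for DDX56, −0.12 to 0.019 for DHX15 and −0.38 to 0.011 for DHX35. In V1 they ranged from −0.12 to 0.038 for DDX18, −0.17 to 0.33 for DDX41 and −0.058 to 0.15 for DDX56. The cause was not tested. The Ribo-seq control replicates differ by a median of −0.91 over the members, replicate 2 minus 1.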
